A study of Psammomys obesus with 8 samples.

Results

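Methyl-CpG capture over 5 genes of the endocannabinoid system was described in the hypothalamus of the fat sand rat, Psammomys obesus, a desert rodent that readily becomes obese and diabetic on energy-rich food. The genes were Cnr1, Dagla, Daglb, Faah and Mgll, taken by name with earlier results of these data known. Their members were the assembled contigs whose deposited name places their mouse match inside the gene, at a distance of 0. These numbered 61 of 548060 contigs, with 3 in Cnr1, 15 in Dagla, 14 in Daglb, 8 in Faah and 21 in Mgll. In the table as a whole 125082 contigs lay inside 19098 genes.

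The 8 libraries came from male offspring aged 16 weeks. The 4 low-low libraries carry the diet label Low lipid and the 4 standard-low libraries carry Standard Lipid. The deposited design names the diet of the father as the difference, while the deposited title speaks of parental diet. No label says which word of the group name is whose diet, whether animals were pooled, or which strain or litter they came from. DNA was passed over MethylMiner beads, whose methyl-CpG binding domain holds back fragments with methylated CpG, and what was held back was sequenced. A count thus reflects methylation as well as the amount of that sequence in the DNA. The question was whether capture over these genes differed between the low-low and standard-low offspring. Because the tissue was taken whole, a different share of a cell type and a different methylation per cell cannot be told apart.

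The endocannabinoid system signals backwards across synapses. The neuron that receives a signal makes the lipid 2-arachidonoylglycerol (2-AG) from diacylglycerol, mainly with the diacylglycerol lipases encoded by Dagla and Daglb, and the lipid acts on the cannabinoid receptor CB1, encoded by Cnr1, on the incoming terminal. Monoacylglycerol lipase, encoded by Mgll, breaks 2-AG down, and fatty acid amide hydrolase, encoded by Faah, breaks down anandamide, the other main ligand. In the hypothalamus this signalling is known for promoting food intake.

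Stretches of 6 contigs are printed here, as the pieces of sand rat DNA that the results below turn on. Each runs 5′ to 3′ as deposited, with every CpG, the target of the capture, in capitals. Stretches were the 300 bases richest in CpG, or the whole contig where it was shorter. Contigs 2098813 and 20349 lie in Cnr1, 1976467 and 2703161 in Dagla, 1210469 in Daglb and 4085560 in Mgll.
Cnr1 contig 2098813, bases 554 to 853: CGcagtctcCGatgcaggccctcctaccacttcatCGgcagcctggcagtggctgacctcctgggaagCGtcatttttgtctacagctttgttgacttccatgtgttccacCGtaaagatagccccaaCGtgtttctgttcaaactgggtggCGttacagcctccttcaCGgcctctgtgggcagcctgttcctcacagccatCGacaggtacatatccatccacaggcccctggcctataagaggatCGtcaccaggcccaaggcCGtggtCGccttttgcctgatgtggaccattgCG
Cnr1 contig 20349, bases 106 to 405: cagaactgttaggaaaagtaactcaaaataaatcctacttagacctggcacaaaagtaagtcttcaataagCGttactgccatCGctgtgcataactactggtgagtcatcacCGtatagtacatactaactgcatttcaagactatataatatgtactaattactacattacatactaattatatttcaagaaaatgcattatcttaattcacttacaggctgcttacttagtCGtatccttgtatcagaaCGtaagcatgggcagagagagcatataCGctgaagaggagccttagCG
Dagla contig 1976467, bases 113 to 412: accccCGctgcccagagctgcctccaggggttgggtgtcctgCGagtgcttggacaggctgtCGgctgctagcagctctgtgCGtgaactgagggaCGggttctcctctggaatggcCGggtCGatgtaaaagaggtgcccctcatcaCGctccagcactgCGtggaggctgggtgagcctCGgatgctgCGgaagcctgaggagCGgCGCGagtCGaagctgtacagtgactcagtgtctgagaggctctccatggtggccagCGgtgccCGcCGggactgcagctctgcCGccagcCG
Dagla contig 2703161, bases 1 to 293: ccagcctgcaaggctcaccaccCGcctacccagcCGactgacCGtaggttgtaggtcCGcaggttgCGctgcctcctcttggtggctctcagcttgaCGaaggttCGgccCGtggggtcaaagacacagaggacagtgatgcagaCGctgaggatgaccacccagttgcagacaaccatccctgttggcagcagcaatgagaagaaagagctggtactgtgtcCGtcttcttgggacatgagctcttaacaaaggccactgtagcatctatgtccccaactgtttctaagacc
Daglb contig 1210469, bases 92 to 391: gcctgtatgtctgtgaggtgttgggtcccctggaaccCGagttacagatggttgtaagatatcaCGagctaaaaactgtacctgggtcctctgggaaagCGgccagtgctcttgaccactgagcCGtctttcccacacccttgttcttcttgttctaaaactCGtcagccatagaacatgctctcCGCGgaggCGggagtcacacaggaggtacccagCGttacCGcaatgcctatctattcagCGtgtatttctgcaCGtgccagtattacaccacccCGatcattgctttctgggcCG
Mgll contig 4085560, bases 193 to 492: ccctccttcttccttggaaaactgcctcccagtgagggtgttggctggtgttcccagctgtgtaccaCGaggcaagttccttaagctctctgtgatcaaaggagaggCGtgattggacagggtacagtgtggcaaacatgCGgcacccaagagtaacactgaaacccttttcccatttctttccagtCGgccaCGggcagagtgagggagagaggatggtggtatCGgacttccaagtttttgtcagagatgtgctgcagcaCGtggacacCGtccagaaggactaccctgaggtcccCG
The windows held 13, 7, 20, 10, 14 and 9 CpG in this order, so contig 1976467 of Dagla offers the capture domain the most targets and contig 20349 of Cnr1 the fewest.

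Positions are those of the mouse match given in the deposited names, with a mouse build not given in the sources used here, and the exon or intron at each was not analysed here. Contig 2098813 matched mouse chromosome 4 from 33943521 to 33944410 over 891 aligned bases, and its neighbour contig 177367 matched from 33944412 to 33945216. The pair left 1 base between their matches and each had a long reading frame without a stop codon, 810 of 915 bases and 621 of 798 bases. Only 1.25% and 2.36% of contigs within 10% of their length had a run as long. Contig 20349, by contrast, matched from 33938116 to 33938614 and its longest such run was 144 of 534 bases.

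In Dagla, contig 1976467 matched chromosome 19 from 10248089 to 10248554 and was free of stop codons over 465 of its 466 bases, a run that 1.44% of contigs of like length reached. Contigs of like length were not matched for GC content, which was 64.8% in contig 1976467. Contig 2703161 matched chromosome 19 from 10269173 to 10269430. The Daglb contig 1210469 matched chromosome 5 from 143498180 to 143498263, with only 85 of its 613 bases aligned to mouse. The Mgll contig 4085560 matched chromosome 6 from 88807629 to 88808190. Another Mgll contig, 1261745, was free of stop codons over all 519 bases, as were 0.934% of like length, but had only 76 bases aligned. Of all 61 contigs, 14 had fewer than 100 bases aligned, so their place in a gene rests on a short match. In Mgll the match of contig 3310117, 40 bases, lay wholly inside that of 2893453, and in Dagla those of 3442415 and 3712106 shared 18 bases. These pairs may therefore not be independent pieces of their genes. The contigs of a pair were not compared with each other.

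The 61 contigs were 167 to 1430 bases long, with a median of 472, and each held at least 4 CpG. Their CpG density had a median of 2.45 per 100 bases, against 2.26 for all contigs inside genes. Their ratio of observed to expected CpG stayed below 0.6, a usual mark of CpG islands, in 61 of 61 (highest 0.532), while 4.39% of contigs inside genes reached it. GC content was high: 22 of the 61 contigs, or 36.1%, had at least 55% GC, against 20.6% of contigs inside genes, and 12 of those 22 lay in Dagla.

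Captured level followed CpG density. Across the 61 contigs, CpG per 100 bases and CPM per kb of contig correlated with Pearson r = 0.628, a description over contigs that share libraries and in part base composition. CPM are counts scaled to the same library total, after TMM scaling of the libraries. The same correlation over the 125082 contigs inside genes was 0.383. The contig with the highest level per length was 2410369 in Mgll at 7.87 CPM per kb, and the lowest was 1424263 in Dagla at 1.76.

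**Figure D1:**
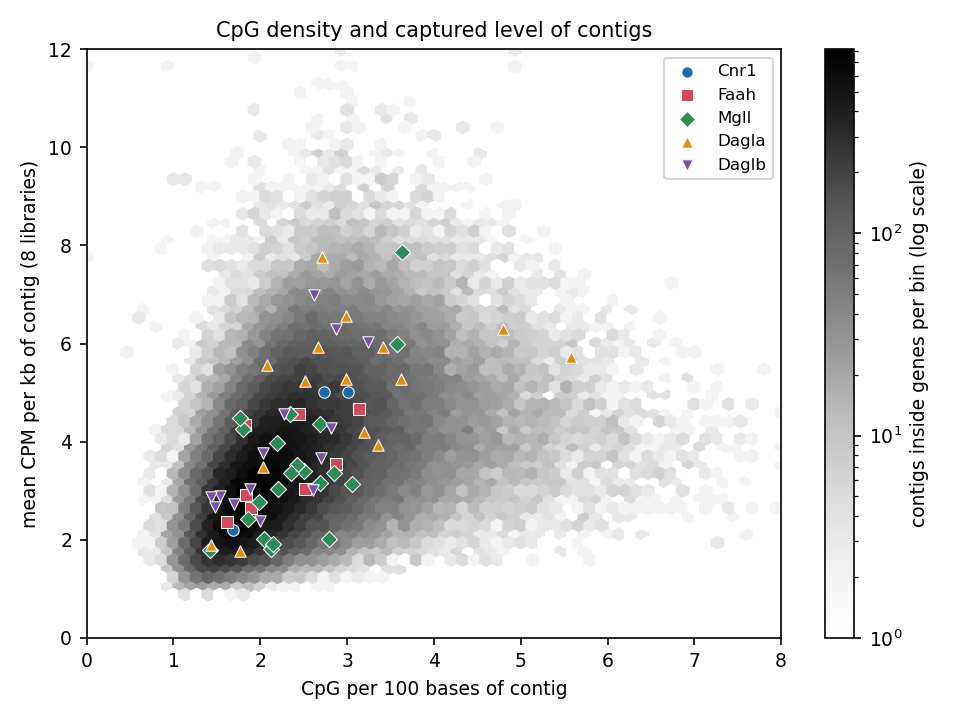
CpG per 100 bases of contig (x axis) against mean CPM per kb of contig over the 8 libraries (y axis) for the 61 contigs, by gene, over all contigs inside genes in grey (log scale of contigs per bin). The 61 contigs lie within the grey cloud, and those with more CpG tend to sit higher (r = 0.628).

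Per kb of contig, Dagla had the highest captured level, 4.51 ± 0.426 CPM per kb (SD over all 8 libraries), followed by Cnr1 at 4.34 ± 0.517, Daglb at 3.74 ± 0.294, Faah at 3.43 ± 0.298 and Mgll at 3.22 ± 0.174. The median gene of the table had 3.65. The ranges of all 4 neighbouring pairs in this order overlapped. Daglb nevertheless stood above Faah in 8 of 8 libraries, while Dagla stood above Cnr1 in only 5. A level per kb depends on how many CpG the contigs hold as well as on their methylation.

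For none of the 5 genes did a difference between the groups pass the test. Counts summed over the contigs of a gene gave 0 of 5 genes past an edgeR adjusted p of 0.05 and 0 of 5 at an unadjusted p under 0.05, beside 0.00524% and 6.03% of all 19098 gene sums. DESeq2 also gave 0 at both (0.0105% and 3.01% of all genes), as did limma voom (0.0% and 6.53%). The sums were lower in standard-low for 4 of the 5 genes, all but Cnr1, where 58.6% of all genes were lower. The groups overlapped in every one of the 5, against 3.48% of genes whose groups did not.

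For the receptor gene Cnr1, summed captured levels stood at 10.4, 9.14, 8.51 and 9.37 CPM in low-low libraries 1 to 4, against 8.73, 11.8, 10.9 and 9.21 CPM in standard-low libraries 1 to 4. Standard-low 2 and 3 were the highest of the 8, and standard-low 1 and 4 lay inside the low-low range. The means were 9.35 ± 0.782 and 10.2 ± 1.45 CPM (SD, n = 4), a ratio of 1.09 with a 95% interval of 0.916 to 1.29 (edgeR adjusted p = 0.872). All 3 Cnr1 contigs had a ratio above 1, but most of the excess sat in contig 20349. Its levels ran at 0.917, 0.743, 0.883 and 1.08 CPM across the low-low libraries, against 1.20, 2.02, 1.41 and 1.18 CPM across the standard-low ones. All 4 standard-low libraries lay above all 4 low-low ones, and standard-low 2 was the highest. The log2 fold change was 0.69 ± 0.31 (SE; edgeR unadjusted p = 0.0286, adjusted p = 0.853), on counts of 10 to 24 per library. Without standard-low 2 it was 0.48 with an unadjusted p of 0.153, and without low-low 2 the p was 0.0751. Without this contig the Cnr1 sums were 8.45 ± 0.764 and 8.72 ± 1.11 CPM. Contigs 2098813 and 177367, with the long open frames, had log2 fold changes of 0.06 ± 0.17 and 0.02 ± 0.18 (SE).

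Dagla encodes the lipase that makes most of the 2-AG of the brain. Its sums ran at 24.2, 27.9, 29.5 and 25.7 CPM across the low-low libraries, against 25.3, 21.7, 26.5 and 24.2 CPM across the standard-low ones. Standard-low 2 was the lowest of the 8 and low-low 3 the highest, and the groups overlapped. Means were 26.8 ± 2.34 and 24.4 ± 2.07 CPM (SD, n = 4), a ratio of 0.911 with a 95% interval of 0.805 to 1.03 (edgeR unadjusted p = 0.128, adjusted p = 0.817). Of its 15 contigs 10 were lower and 5 higher in standard-low. Contig 2703161 had the lowest p of all 61. Its levels ran at 1.53, 2.01, 2.73 and 2.07 CPM across the low-low libraries, against 1.45, 1.35, 1.66 and 1.10 CPM across the standard-low ones, so only standard-low 3 reached into the low-low range. The log2 fold change was -0.58 ± 0.26 (SE; edgeR unadjusted p = 0.0271, adjusted p = 0.852). The unadjusted p was 0.137 without low-low 3 and 0.085 without standard-low 4. The CpG-rich contig 1976467 averaged 3.04 ± 0.562 CPM in low-low against 2.29 ± 0.705 CPM in standard-low libraries (SD, n = 4; edgeR adjusted p = 0.889), with 17 counts in standard-low 2 against 26 to 48 in the other 7 libraries.

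Daglb, the second diacylglycerol lipase gene, is known for its part in microglia and macrophages. Its sums ran at 32.7, 34.8, 33.5 and 33.7 CPM across the low-low libraries, against 34.9, 28.1, 36.2 and 30.8 CPM across the standard-low ones. The standard-low libraries lay on both sides of the low-low ones, with 1 and 3 above and 2 and 4 below all of them. Means were 33.7 ± 0.855 and 32.5 ± 3.75 CPM (SD, n = 4), a ratio of 0.965 with a 95% interval of 0.861 to 1.08 (edgeR adjusted p = 0.928). Its contigs were split, 6 lower and 8 higher. Contigs 3680200 and 1193021 had the most counts, 538 each. Their log2 fold changes were -0.26 ± 0.16 and 0.07 ± 0.16 (SE). Contig 1210469 ran at 1.99, 2.38, 2.17 and 2.23 CPM across the low-low libraries, against 2.05, 1.01, 1.91 and 1.01 CPM across the standard-low ones. Standard-low 2 and 4 held 12 counts each, below all low-low libraries, while standard-low 1 lay inside the low-low range and standard-low 3 just below it. The log2 fold change was -0.55 ± 0.25 (SE; edgeR unadjusted p = 0.0328, adjusted p = 0.858). The unadjusted p was 0.126 without standard-low 2 and 0.136 without standard-low 4, 0.0724 without low-low 2 and 0.0536 without low-low 4.

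Of the genes of breakdown, Faah ran at 15.4, 15.8, 16.1 and 15.3 CPM across the low-low libraries, against 13.2, 13.1, 16.7 and 15.0 CPM across the standard-low ones. The low-low libraries lay close together, standard-low 1, 2 and 4 below all of them and standard-low 3 above. Means were 15.6 ± 0.36 and 14.5 ± 1.73 CPM (SD, n = 4), a ratio of 0.929 with a 95% interval of 0.806 to 1.07 (edgeR adjusted p = 0.86). Of its 8 contigs, 6 were lower and 0 had an unadjusted p under 0.05. Contig 1703198 had the most counts, 401, and a log2 fold change of -0.09 ± 0.19 (SE). The lowest p was that of contig 2461487, on chromosome 4 from 115998792 to 115998968, at 1.15 ± 0.25 and 0.759 ± 0.122 CPM (edgeR unadjusted p = 0.08, adjusted p = 0.894).

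Mgll had the most contigs and the narrowest interval. Its sums ran at 40.4, 35.3, 38.5 and 40.7 CPM across the low-low libraries, against 39.3, 36.3, 37.1 and 36.2 CPM across the standard-low ones, with all standard-low libraries inside the low-low range. Means were 38.7 ± 2.49 and 37.2 ± 1.44 CPM (SD, n = 4), a ratio of 0.961 with a 95% interval of 0.870 to 1.06 (edgeR adjusted p = 0.893). The Mgll contig with the most counts, 3297917 with 377, had a log2 fold change of -0.09 ± 0.18 (SE). Of the 21 contigs 14 were lower and 7 higher. At 2 of them (9.52%) the groups did not overlap, in opposite directions, against 3.24% of all contigs. Contig 4085560 ran at 0.917, 0.520, 1.04 and 0.922 CPM across the low-low libraries, against 1.20, 1.35, 1.16 and 1.44 CPM across the standard-low ones (edgeR unadjusted p = 0.0648, adjusted p = 0.888). Contig 4626342, matched from 88818557 to 88818832 and singled out for this after its values were seen, averaged 1.94 CPM in low-low against 1.41 CPM in standard-low libraries (edgeR unadjusted p = 0.0766, adjusted p = 0.894).

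**Figure D2:**
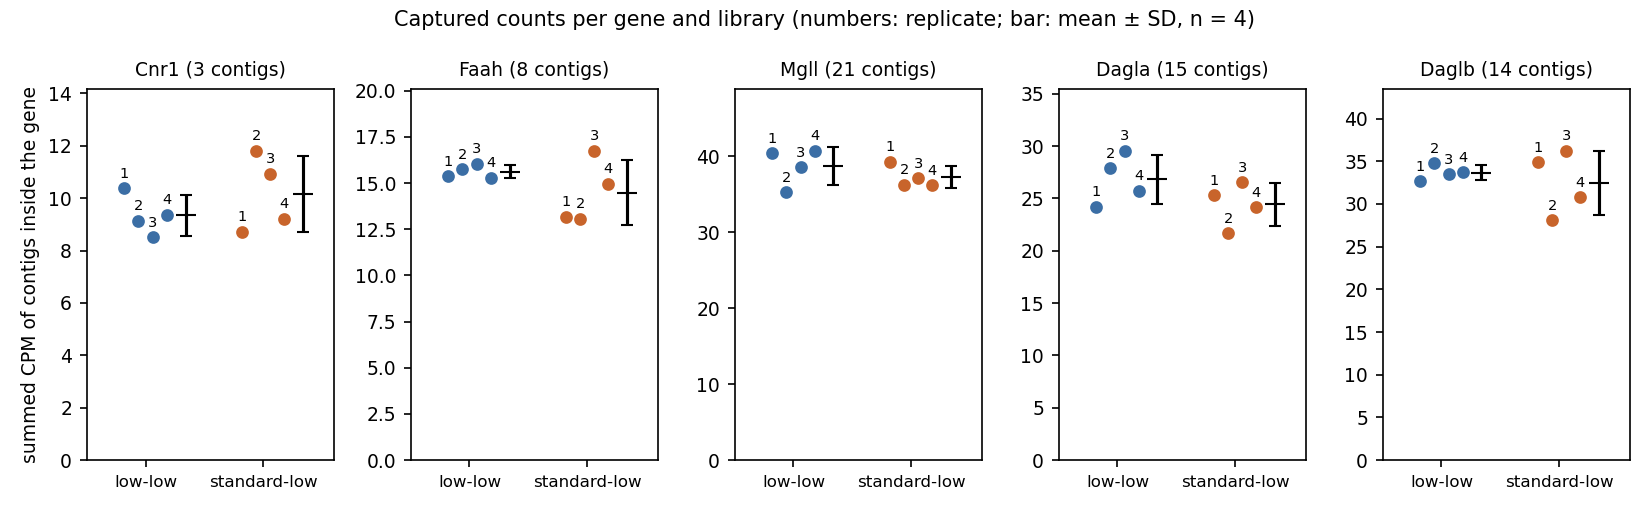
Summed CPM of the contigs inside each gene (y axis, from 0) for the 4 low-low (blue) and 4 standard-low (orange) libraries, numbered by replicate, with mean ± SD. The groups overlap in all 5 genes. The standard-low points of Faah and Daglb spread wider than their low-low points.

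The spread within groups was itself uneven. For Faah the SD was 4.81 times as large in standard-low as in low-low, for Daglb 4.38 times and for Cnr1 1.85 times. For Dagla and Mgll it was smaller (0.883 and 0.58 times). The low-low SD of Faah, 0.36 CPM, was below the 1.1 CPM that counting error alone gives at 203 counts. That of Daglb, 0.855 CPM, was likewise below the 1.61 CPM of counting error at 438 counts. Over the 9264 genes with a mean of at least 100 counts, the SD was larger in standard-low for 71.7%, with a median ratio of 1.48, and 7.98% had a ratio above 4.

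Contig by contig, 0 of 61 passed an edgeR adjusted p of 0.05, with 0.852 the lowest, and 0.0268% of all contigs passed. At an unadjusted p under 0.05 there were 3 of 61, or 4.92%, namely contigs 20349, 2703161 and 1210469, against 5.68% of all contigs. Contig 20349 was higher in standard-low and the other pair lower, where 2.93% of all contigs were higher and 2.76% lower at that level. DESeq2 gave 0 of the 61 and limma voom 3 (2.28% and 5.56% of all contigs), and both gave 0 after adjustment (0.00584% and 0.00912%). The groups did not overlap at 3 contigs, 2 higher and 1 lower in standard-low, against 3.24% of all contigs (1.63% higher, 1.61% lower). These shares were near the background and are no result about the 5 genes. Of the 61, 36 were lower in standard-low (median log2 fold change -0.07), beside 49.7% of all contigs and 52.6% of contigs inside genes (median -0.02).

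**Figure D3:**
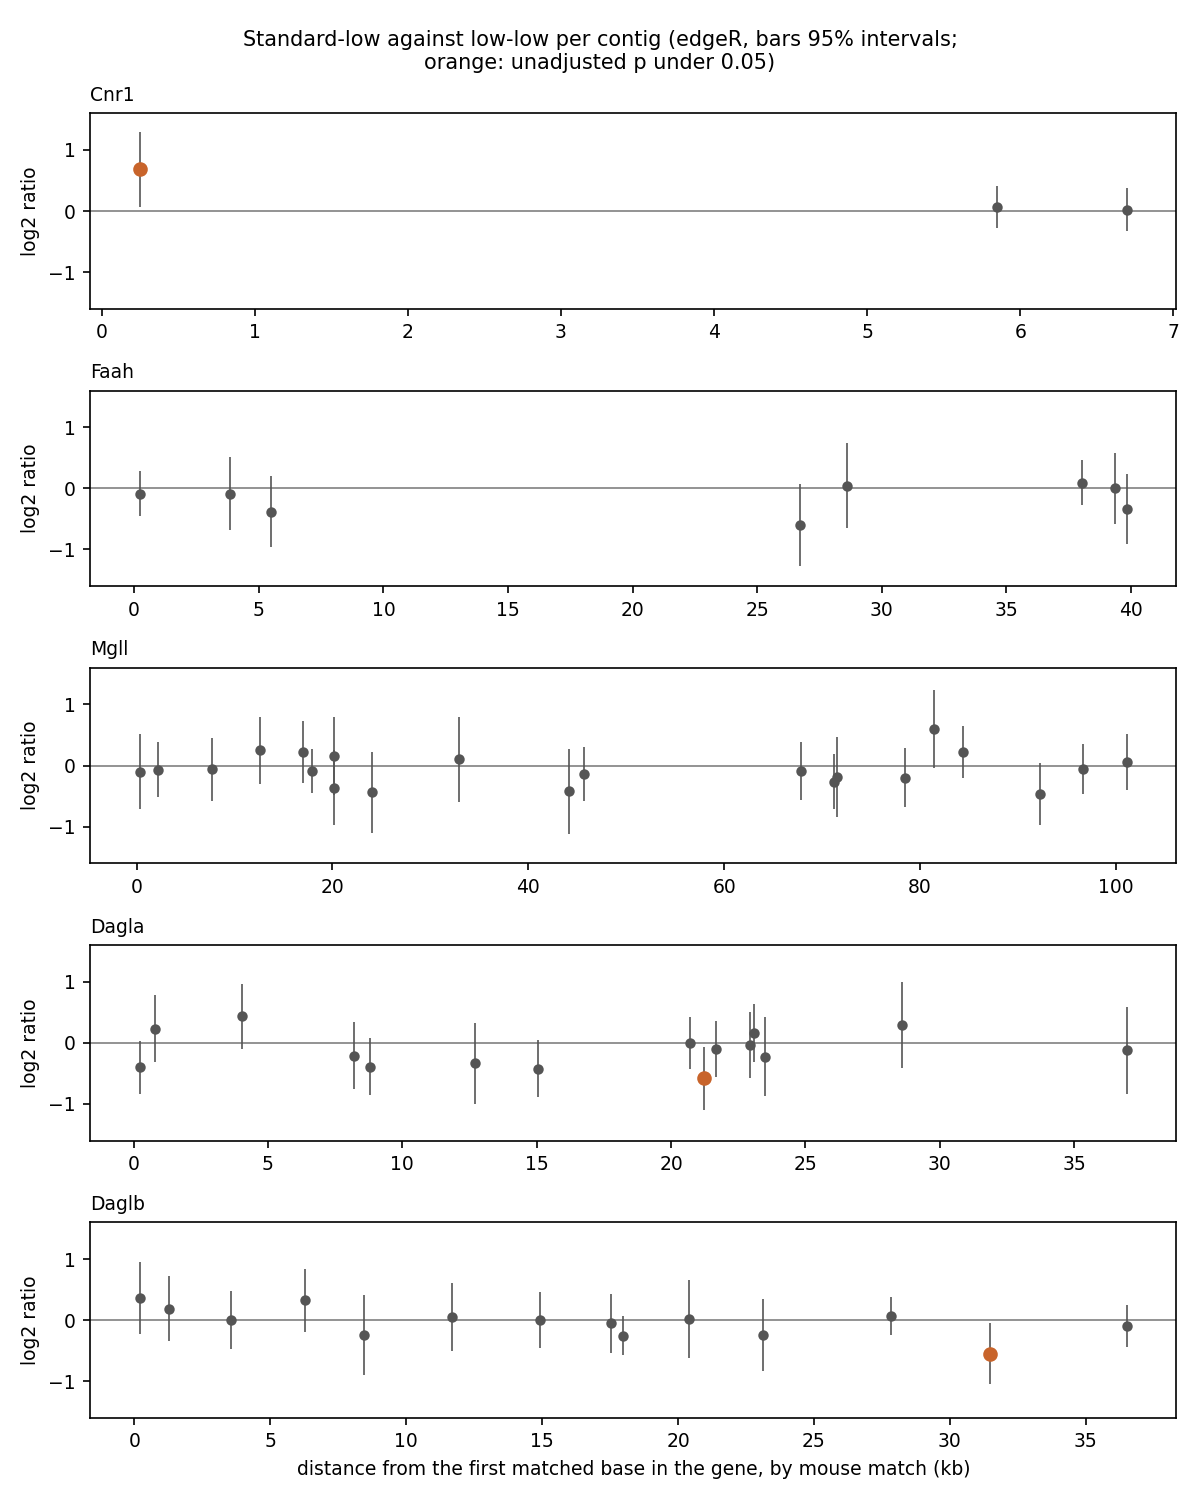
Log2 ratio of standard-low over low-low for each of the 61 contigs (y axis, bars 95% intervals from edgeR) by distance in kb from the first matched base of its gene (x axis). The 3 contigs with an unadjusted p under 0.05, in orange, lie beside neighbours near 0.

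GC content moved with the libraries. Contigs of 55 to 60% GC, 58540 in all, summed to 0.814 of the low-low mean in standard-low 2 and 0.897 in standard-low 4, but to 0.96 in standard-low 1 and 1.05 in standard-low 3. At 60% GC or more the values for standard-low 2 and 4 were 0.725 and 0.818, and under 40% GC they were 1.17 and 1.13. The low-low libraries stayed between 0.96 and 1.04 in every one of these bins. Dagla, the gene with the highest GC, was at 0.808 of its low-low mean in standard-low 2 and 0.901 in standard-low 4. Daglb was at 0.834 and 0.914 in the same libraries, with a median GC of 51.5% over its contigs. Faah, with 55.4%, was at 0.837 and 0.958, but also at 0.844 in standard-low 1. The GC factor, the level that the GC content of a gene's contigs gives relative to the mean of the 8 libraries, was 0.849 and 0.922 for Dagla in standard-low 2 and 4, and 0.965 and 0.986 for Daglb. For Faah it was 0.907, 0.960 and, in standard-low 1, 0.998. The values are relative to the low-low mean and the factors to the mean of the 8 libraries, so their scales differ. How far GC content accounts for the values of single libraries was not tested. Of the contigs named above, 20349 had 39.3% GC and was highest in standard-low 2, while 1210469 had 44.9% GC and was lowest in standard-low 2 and 4, where all contigs of 40 to 45% GC summed to 1.11 and 1.07 of the low-low mean. Library totals were also lower in standard-low, 11646180 to 12156525 counts against 12528388 to 13533441 in low-low.

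A fit with GC offsets, chosen after seeing the data, moved 4 of the 5 genes toward a ratio of 1. Dagla went to 0.979 (95% interval 0.888 to 1.08; edgeR adjusted p = 0.983), Faah to 0.969 and Mgll to 0.986. Daglb went to 0.981, and Cnr1 moved slightly away, to 1.10. On the log2 scale Dagla moved from -0.14 to -0.03, Faah from -0.11 to -0.05, Mgll from -0.06 to -0.02 and Daglb from -0.05 to -0.03. Lower contigs then numbered 31 of 61, beside 49% of contigs inside genes, and 50.9% of all genes were lower. Unadjusted p became 0.0557 for contig 20349 and 0.0593 for contig 2703161, while it was 0.023 for contig 1210469. Contigs 4085560 in Mgll and 4414440 in Dagla, both higher in standard-low, came to 0.0342 and 0.0345. That made 3 of 61 at an unadjusted p under 0.05 and 0 after adjustment, beside 5.45% and 0.0292% of all contigs, and 0 of 5 genes at both, beside 5.41% and 0.0262% of all genes.

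**Figure D4:**
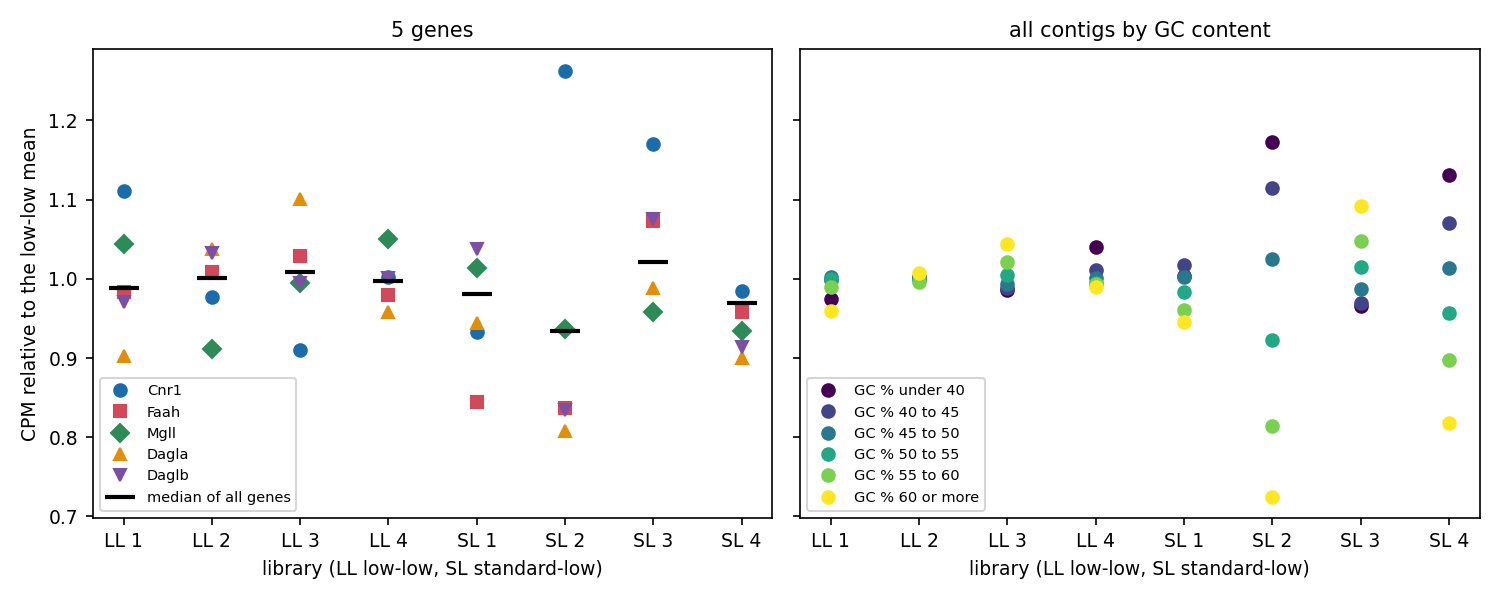
Summed CPM relative to the low-low mean (y axis) in each library (x axis), for the 5 genes and the median of all genes (left) and for all contigs in bins of GC content (right). Standard-low 2 and 4 are low in GC-rich bins. Dagla (0.808 and 0.901) and Daglb (0.834 and 0.914) are low in these libraries, and Faah is as low in standard-low 1 (0.844) as in standard-low 2 (0.837).

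Among 20 further genes of the pathway, 19 held a contig and Fabp7 none. With edgeR 0 of 19 passed the adjusted and 0 the unadjusted threshold, and DESeq2 and limma voom also gave 0 at both. Of the 19, 15 were lower and 4 higher in standard-low (median log2 fold change -0.04, beside -0.03 over all genes), and 11 were lower with GC offsets. Among receptors, Cnr2, which encodes the cannabinoid receptor CB2 of immune cells, averaged 6.16 ± 1.29 CPM in low-low against 5.41 ± 1.09 CPM in standard-low libraries. Trpv1, an ion channel that anandamide opens, had 33.8 ± 1.59 and 32.7 ± 5.23 CPM. Of the genes of synthesis, Napepld, which releases anandamide from its precursor, had 5.49 ± 0.483 and 5.34 ± 0.64 CPM. Abhd6, a further hydrolase of 2-AG, had the lowest p at 4.64 ± 0.754 and 3.92 ± 0.659 CPM (SD, n = 4; edgeR unadjusted p = 0.16, adjusted p = 0.824). These 19 genes held 127 contigs, of which 2 had an unadjusted p under 0.05 and 0 passed adjustment, beside 5.68% and 0.0268% of all contigs.

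**Figure D5:**
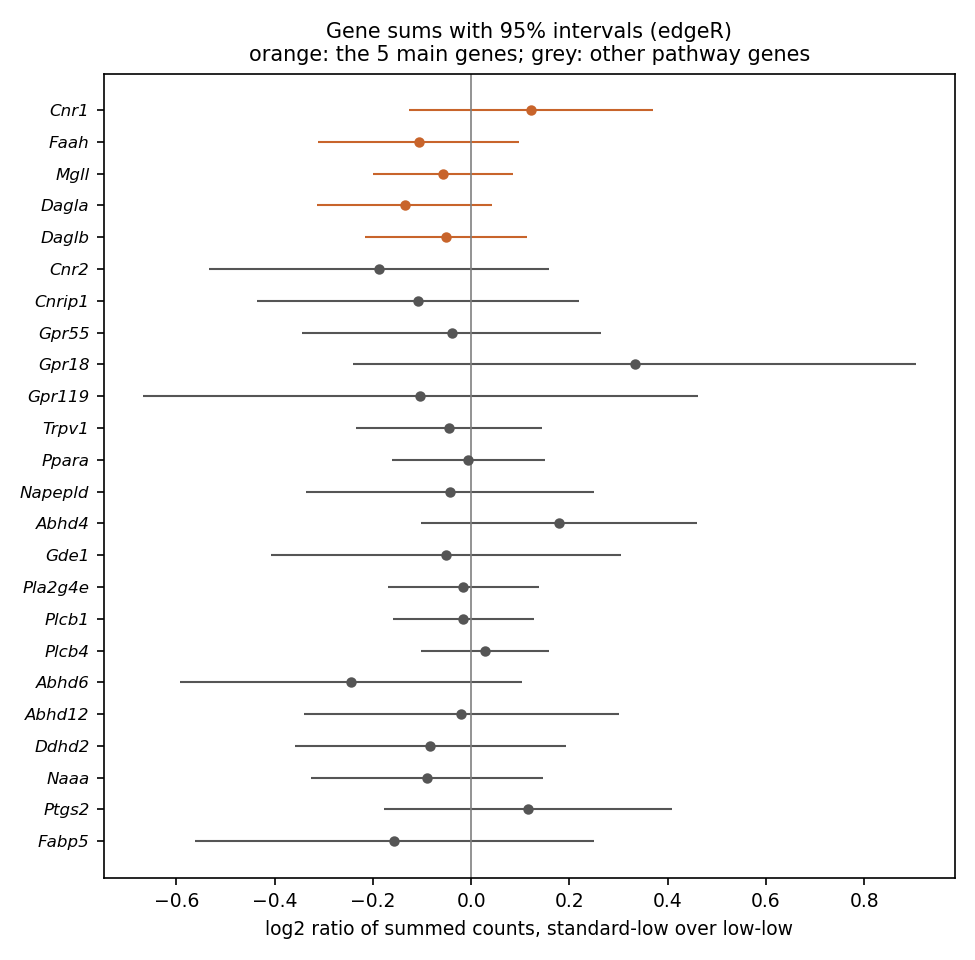
Log2 ratio of summed counts, standard-low over low-low (x axis), with 95% intervals from edgeR, for the 5 genes (orange) and 19 other pathway genes (grey). Every interval spans 0.

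Captured DNA does not measure expression, so the labelled tissue could not be checked by marker levels. Of 25 marker genes of neurons, oligodendrocytes, astrocytes, microglia and pituitary, 20 held contigs, 0 passed the edgeR adjusted threshold and 2 had an unadjusted p under 0.05, where 0.00524% and 6.03% of all genes did. Summed marker levels ran from 248 to 258 CPM in low-low and 240 to 267 CPM in standard-low for 5 neuronal genes. The ranges were 67.7 to 71.4 and 54.4 to 72.7 CPM for 4 oligodendrocyte genes, 60.7 to 64.3 and 59.0 to 64.8 for 4 astrocyte genes, 88.9 to 91.8 and 69.9 to 96.3 for 4 microglial genes, and 7.41 to 10.2 and 7.09 to 10.1 for 3 pituitary genes. In standard-low, gene sums were lower for 4 of 4 oligodendrocyte, 4 of 4 microglial and 3 of 4 astrocyte genes. They were lower for 2 of 5 neuronal and 1 of 3 pituitary genes. That made 14 of 20 lower, beside 58.6% of all genes. The standard-low minimum was below the low-low minimum for all 5 cell types, and the standard-low maximum was above the low-low one for all but pituitary. Their part in the values of the 5 genes was not tested.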

How the data were processed

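Read counts per assembled contig were deposited by the authors for 8 libraries. FastQC and BWA are named in the submitters' processing notes. Their versions and settings, the assembler and the mouse build were not given in the sources used here. Since the header separates library names by spaces and the values are separated by tabs, names were matched to columns in header order. The lowest summed count was 81, so only contigs above some minimum are listed. Labels do not say that replicates are separate animals, so p-values measure the spread between these samples. No pair of libraries of 1 group agreed within sampling noise (chi-square per degree of freedom 1.24 to 1.93).

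Contigs, and counts summed over contigs inside each gene, went into edgeR 4.0.16, under R 4.3.3 (TMM factors of the contig table, glmQLFTest, two-sided, Benjamini-Hochberg over all 548060 contigs or 19098 genes, threshold 0.05). A minimum mean of 10 counts removed nothing. Intervals are 95%. Contigs named were, per gene, those with most counts and lowest p, and those with an unadjusted p under 0.05; any others were named after their values were seen. Of the other pathway genes, those with an unadjusted p under 0.05 were to be named. There were none, so those given were chosen by role or lowest p after their values were seen. Alternatives were DESeq2 1.42.0, limma voom 3.58.1, other scalings, windows and match lengths, no minimum count, a replicate block and leaving out each library. GC offsets (50 bins) were added after the data were seen. The members and lists were chosen with earlier results of these data known. On simulated gene sums 18% of 1.25-fold, 64% of 1.5-fold and 88% of 2-fold changes were recovered. On simulated contigs 4% of 1.5-fold, 26% of 2-fold and 82% of 4-fold changes were recovered. False calls numbered 10 for gene sums and 2 for contigs. The simulated counts held no GC shifts between libraries, so recovery in the real libraries may differ.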

Additional observations from a re-analysis of the deposited data

How the results depend on the processing

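All 5 gene sums stayed past no adjusted threshold in each of 17 alternatives. Their direction held except for Daglb, whose log2 fold change was 0.013 without standard-low 2. The run without a minimum count is among the 17 and repeats the main fit, since the minimum removed nothing. The 5 kb window added no contig to Cnr1, Mgll or Dagla, and the 100-base minimum removed none from Cnr1. Leaving out 1 library at a time gave log2 fold changes of 0.04 to 0.19 for Cnr1, -0.18 to -0.06 for Faah, -0.10 to -0.03 for Mgll, -0.18 to -0.08 for Dagla and -0.11 to 0.013 for Daglb. Dagla had an unadjusted p of 0.0493 without standard-low 3 (edgeR adjusted p = 0.338). Contigs of the 5 genes at an unadjusted p under 0.05 numbered 3, and 0 with DESeq2. They ran from 1 to 6 of 61 when 1 library was left out. The count was 1 (1.64%) without low-low 2, standard-low 2 or standard-low 4, where 4.92%, 5.41% and 5.55% of all contigs passed, 5 (8.20%) without low-low 3, beside 4.99%, and 6 (9.84%) without standard-low 3, beside 7.50%. The cause was not tested. The count past adjustment was 0 in all 15 alternatives for contigs, as was that of the other pathway genes in all 17. Both totals include the run without a minimum count.

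Same-numbered libraries deviated together only weakly, with correlations of 0.0576, 0.0624, 0.115 and -0.0166. Libraries of different numbers gave -0.131 to 0.0671, so these values do not settle whether the numbers are pairs. The labels do not say that numbers pair animals, so no pairs were used in the main fit. With a replicate block the log2 fold changes were 0.12, -0.11, -0.06, -0.14 and -0.06 for Cnr1, Faah, Mgll, Dagla and Daglb. It gave 3 of the 61 contigs (4.92%) at an edgeR unadjusted p under 0.05, beside 5.74% of all contigs. Of these genes and their contigs 0 were called, while 3 of all 19098 genes were. With contigs up to 5 kb from the gene Faah was at -0.07, and with matches of at least 100 bases at -0.16. Depth limits single contigs, which held a median of 20.9 counts per library, so that a 2-fold change would mostly be missed.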

Other observations

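Just outside the genes, 3 contigs lay within 5 kb. The nearest, contig 2160189 at 147 bases from Faah, averaged 2.19 ± 0.332 CPM in low-low against 2.08 ± 0.602 CPM in standard-low libraries (SD, n = 4; edgeR adjusted p = 0.99). Contig 3551740, at 4644 bases from Faah, had 0.999 ± 0.193 and 1.31 ± 0.604 CPM, and contig 317028, at 4539 bases from Daglb, 1.48 ± 0.192 and 1.63 ± 0.827 CPM, with adjusted p of 0.939 and 0.981. Standard-low 2 was the highest library for the Daglb contig, at 2.78 CPM.

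The genes whose summed levels followed each member most closely over the 8 libraries were sought among 9263 genes with a mean of at least 100 counts. They were Gm4735 (Pearson r = 0.972) and AC157950.1 (0.95) for Cnr1, Mark4 (0.993) and Atp6v1f (0.984) for Dagla, Pcdh1 (0.99) and Myg1 (0.987) for Daglb, Csf2rb2 (0.991) and Nacc2 (0.976) for Faah, and Rcan2 (0.957) and Polr3f (0.953) for Mgll. The median correlation with all those genes was 0.369 for Dagla, 0.395 for Daglb, 0.367 for Faah, 0.123 for Mgll and -0.20 for Cnr1. These are the extremes of many comparisons over the same 8 libraries, which differ in GC profile, and nothing is read from the names. Of the 61 contigs, 16 had their lowest level in standard-low 2, or 26.2%, as did 22.5% of contigs inside genes.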
